A study of Mus musculus with 14 samples.

Results

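The genes for the protein parts of the cytosolic ribosome were followed through 14 RNA-seq libraries of sorted intestinal regulatory T cells (Tregs) of mice that carry or lack the transcription factor JunB. Members were chosen by symbol as protein-coding genes named Rpl or Rps with a number, Rplp0, Rplp1, Rplp2 and Rpsa, without the Rps6k kinases, which gave 83 of the 53564 genes listed in both count tables. Of these, 51 code for proteins of the large subunit and 32 for proteins of the small subunit. The first table held Peyer's patch (PP) Tregs, sorted as CD4+ cells with Foxp3(YFP), of 2 Junb F/+ (HET) and 2 Junb F/F (KO) male mice of 8 to 12 weeks, in which the Foxp3 locus drives a YFP-tagged Cre, so that the floxed Junb alleles are targeted in cells that turn on Foxp3. The second table held Tregs of Foxp3ERT2cre Rosa26-tdTomato+ mice of 10 to 12 weeks, which were given 3 doses of 8 mg tamoxifen by gavage on days 0, 1 and 3 and collected on day 7. From this inducible line came TCRb+CD4+Foxp3(EGFP)+tdTomato+ Tregs of the colonic lamina propria of 3 Junb F/+ (iHET) and 3 Junb F/F (iKO) mice, and CD25- PP Tregs of 2 iHET and 2 iKO mice. All control mice carry the Cre and 1 floxed Junb allele, and all mice of the inducible line received tamoxifen. In each group of the inducible line the mouse numbered 1 is a male labelled with Foxp3ERT2cre+ and the others are females labelled +/+, so sex, Cre copies and mouse number cannot be told apart there.

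Each ribosomal protein is made from its own gene, and the products are needed in equal amounts, since a ribosome holds 1 copy of nearly every one. Messages for these proteins begin with a C and a run of pyrimidines, the 5′ terminal oligopyrimidine (TOP) motif, through which mTORC1 and LARP1 set how strongly they are translated. In T cells, activation through the antigen receptor and Myc raise ribosome synthesis before cells grow and divide. Ribosomal protein genes have also left many processed copies, or pseudogenes, across the mouse genome, which are nearly identical to the parent message.

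The pyrimidine run was visible at annotated start sites of many members. RefSeq (GRCm38.p6) gave the start region of 63 of the 83 members, with 75 start sites in all. A C followed by at least 5 pyrimidines lay within 10 bases of the annotated start, on the strand of the gene, at 35 of these 75 starts, or 46.7%, against 19.2% of 32851 starts of all genes in the same table. Counted per gene, 54.0% of the members and 21.9% of all genes had such a run at 1 start or more. The runs of 6 members are shown here as examples, picked from the starts that had one. The windows hold 15 bases before and 15 bases from the annotated start. The run is in capitals from its first C within 10 bases of the start. In Rpl7a and Rpl38 further pyrimidines stand just before that C. They belong to Rps6 (chr4:86857353-86857382, minus strand), the small subunit protein phosphorylated by S6 kinase, to Rps27 (chr3:90213634-90213663, minus strand), Rps18 (chr17:33955651-33955680, minus strand), Rpl7a (chr2:26910792-26910821, plus strand), Rpl35a (chr16:33056467-33056496, plus strand) and Rpl38 (chr11:114668565-114668594, plus strand).
Rps6: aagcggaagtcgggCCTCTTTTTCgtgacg
Rps27: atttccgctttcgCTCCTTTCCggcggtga
Rps18: tacgtcacttccgCTCTCTCTTCCacagga
Rpl7a: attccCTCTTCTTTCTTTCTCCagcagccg
Rpl35a: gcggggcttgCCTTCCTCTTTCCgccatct
Rpl38: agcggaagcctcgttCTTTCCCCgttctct

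How far a read can be traced to a member depends on its copies. The reads were 50 bases long and only those with a single place in the genome were counted, so coding sequences were cut into all stretches of 50 bases and looked up in the transcripts of all other genes (GENCODE M21). Of the 83 members, 80 shared at least 1 stretch with another gene, 29 had no coding stretch of their own, and 3, Rpl39l and Rpl3l among them, had only stretches of their own. For Rpl4, 79.7% of the coding stretches occurred in no other gene, against 91.3% for Rpl8, 91.9% for Rps3 and 4.31% for Rpl3. Stretches of both kinds are printed here because a read from a shared one has no single place in the genome, with positions counted from the first base of the start codon. The stretch of Rps3 (coding bases 341 to 390) is found in 0 other genes, and likewise that of Rpl4 (605 to 654). By contrast, that of Rpl3 (527 to 576) is also found in 16 other genes, that of Rps6 (471 to 520) in 13, that of Rpl7a (429 to 478) in 45, and that of Rpl23a (250 to 299) in 18.
Rps3: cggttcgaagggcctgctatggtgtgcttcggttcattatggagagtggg
Rpl4: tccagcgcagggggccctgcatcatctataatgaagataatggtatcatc
Rpl3: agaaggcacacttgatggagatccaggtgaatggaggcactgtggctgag
Rps6: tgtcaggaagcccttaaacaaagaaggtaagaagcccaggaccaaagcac
Rpl7a: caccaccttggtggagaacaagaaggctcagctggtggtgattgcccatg
Rpl23a: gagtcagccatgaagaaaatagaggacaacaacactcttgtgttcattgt

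The measured levels of the members spanned a wide range. Levels are compared between genes as RPKM, which are counts scaled to the size of the library and by TMM (CPM) and divided by the kilobases of all annotated exons of the gene. Highest over the 14 libraries were Rpl4 at 297, Rpl8 at 207 and Rplp0, the base of the ribosomal stalk, at 166 RPKM. Lowest among the members tested were Rps16 at 0.615, Rpl36a at 0.725 and Rpl24 at 1.18 RPKM. The highest member was 438-fold above the lowest in the libraries of the inducible line and 413-fold in those of the Foxp3YFPcre mice. Rpl4 was the only member among the 100 protein-coding genes with the highest RPKM in each table, and the median member stood at percentile 65.1 of 14391 protein-coding genes in the inducible line and at 50.7 of 11133 in the other table. Reads shared with copies were left out of the counts, so these ranks hold for counted reads and not for amounts of message.

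Levels followed the uniqueness of the coding sequence. The 12 members with at least 50% of coding stretches of their own had a median of 78.4 RPKM (12.2 to 297), the 38 members with some but under 50% had a median of 10.7 RPKM (1.8 to 166), and the 28 members with none had a median of 3.19 RPKM (0.615 to 33.4, with Rpl41 highest). Across the 78 members tested, level and share of own coding stretches had a Spearman's rho of 0.78 (Pearson's r 0.759 on the log2 level). With stretches of the whole transcript in place of the coding sequence, the rho was 0.369 (r 0.412). Level and exon length had a rho of -0.164. These are correlations across genes that share all libraries, given as a description. Reads of a member without coding stretches of its own, such as Rps6 (2.75 RPKM), can have matched a copy as well and then stayed out of the count, so levels are not compared between members as amounts of message. In addition, exons of 38 members share bases with another gene and 30 members hold a snoRNA gene within them, and the counting ignored strand.

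**Figure D1:**
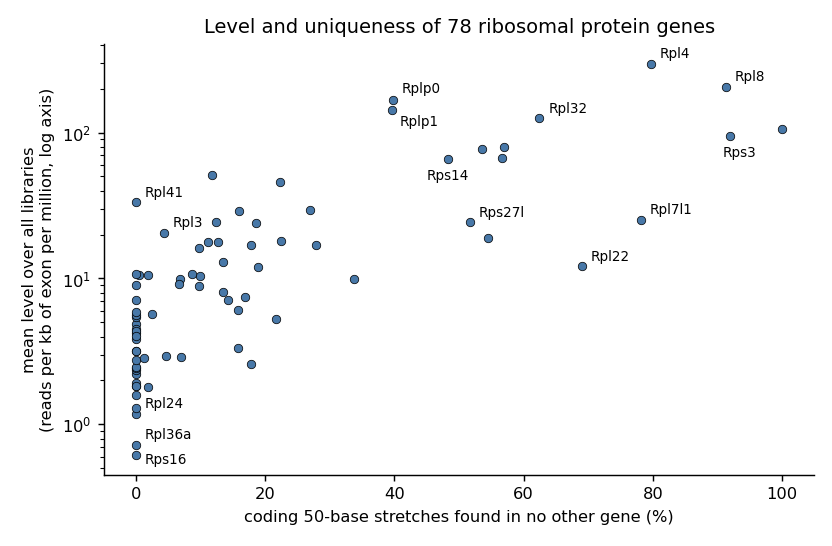
Mean level of 78 ribosomal protein genes over the 14 libraries (RPKM, log axis) against the percent of their coding 50-base stretches that occur in no other gene. Each point is 1 gene. Members without stretches of their own lie between 0.615 and 33.4 RPKM, and those with at least 50% between 12.2 and 297.

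Pairs of related members differed in measured level. Rpl22, which is dispensable for most translation but needed in alpha-beta T cell development, was at 8.22 to 15.4 RPKM in the 6 group means, and its paralog Rpl22l1 at 5.35 to 7.12. Rps27l, a p53 target, stood at 17 to 32 RPKM and Rps27 at 3.7 to 7.87, and Rpl7l1 at 21.6 to 31 and Rpl7 at 13.3 to 28.3. Own coding stretches made up 69% for Rpl22 against 15.8% for Rpl22l1. They made up 51.7% for Rps27l against 0% for Rps27, and 78.1% for Rpl7l1 against 22.5% for Rpl7. In each pair the gene with more own stretches had the higher level, so these levels are not compared as amounts of message. The paralogs with tissue-restricted use elsewhere were close to absent. Rpl10l, which stands in for Rpl10 in male germ cells, had 0 to 18 counts per library, Rpl3l of striated muscle had 0 to 17 and Rpl39l had 0 to 27. These 3 and Rpl23a, with 0 to 15 counts, passed the filter on low counts in no fit, and 3 counts are worth 0.0845 to 0.114 CPM, the smallest level read as present. In all, 75 members were tested in all 4 fits. Rpl35 was tested only in the Foxp3YFPcre table, Rps16 only in the fit of all libraries of the inducible line, Rpl38 in all but that of CD25- PP Tregs, and Rps29 in all but that of PP Tregs.

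All members together held a small part of the counted reads. Between 0.238% and 0.494% of the counted reads of a library fell on the 83 genes. Only reads with a single place in the genome were counted, and 80 of the members share a stretch with another gene. This share is therefore not the share of these genes in the message of the cells. The labels of the libraries were matched by Junb, which was at 4182 to 8471 CPM in the 7 HET and iHET libraries and at 560.9 to 1029 CPM in the 7 KO and iKO libraries, and Foxp3 was detected in all. Libraries held 26274861 to 35508709 counts. In these bulk libraries, fewer cells with a message and less of the message per cell cannot be told apart.

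**Figure D2:**
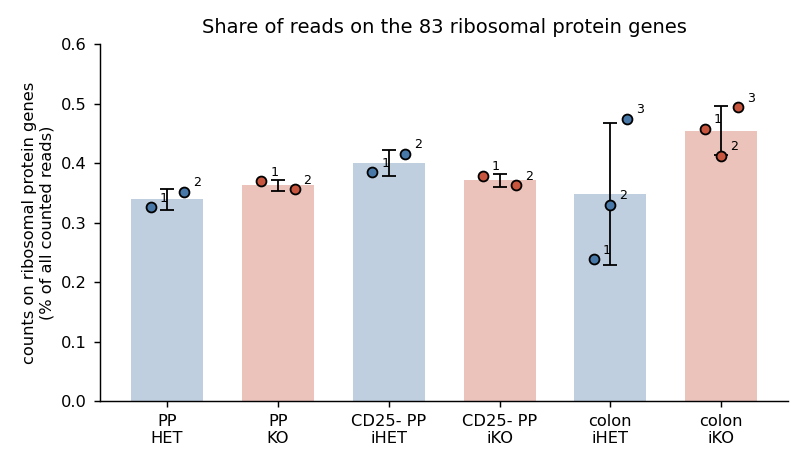
Percent of all counted reads that fell on the 83 ribosomal protein genes. Bars are group means, whiskers 1 SD, points single libraries with the number of the mouse. Colonic iHET libraries range from 0.238% to 0.474%, wider than any other group.

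The first comparison asked what constitutive loss of JunB did in PP Tregs. The share of reads on ribosomal protein genes was 0.326% and 0.352% in the HET and 0.369% and 0.356% in the KO libraries. The groups did not overlap, but KO stood above HET by only 0.0973 on the log2 scale. Of the 77 members tested, 0 passed an FDR of 0.05 in edgeR's quasi-likelihood test, where 3.35% of all 12224 genes did, and DESeq2 and the exact test of edgeR also called 0 members. At an unadjusted p under 0.05 stood 1 member (Rpl37a, higher), while 14.0% of all genes were past that level. The fold change was positive for 57 of 77 members, with a median of 0.09 beside 0.00298 over all genes. The KO libraries were both above the HET libraries for 25 members and both below for 3, whereas 21.8% of all genes were without overlap in each direction. The share of non-overlapping members was thus above that of all genes for higher values and below it for lower values. Among subunits, the median was 0.102 over 47 members of the large and 0.0862 over 30 members of the small subunit.

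Single members of PP Tregs show how small these differences were. Rpl4, a protein of the large subunit near the exit tunnel, was at 749.3 and 747.2 CPM in KO against 639.3 and 675.1 CPM in HET Tregs (log2 fold change 0.19, standard error 0.0825, adjusted p = 0.368). Both KO libraries lay above both HET libraries. Rpl37a had 31.11 and 27.89 CPM in KO against 23.21 and 24 CPM in HET Tregs (0.32 ± 0.119, adjusted p = 0.256). Rplp2, one of the acidic stalk proteins that recruit elongation factors, had 36.46 and 34.79 CPM in KO against 27.25 and 32.59 CPM in HET Tregs (0.25, adjusted p = 0.435), Rps4x had a log2 fold change of 0.27 and Rpl22 of 0.23. Standard errors follow the ± sign for fold changes. The highest fold change of a member belonged to Rpl24, at 0.78 ± 0.467 (adjusted p = 0.526). It rested on 19 and 18 counts in HET libraries against 31 and 30 in KO libraries, so that its 95% interval ran from -0.30 to 1.86.

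The difference in PP Tregs was smaller without 1 HET library. PP HET 1 had the lowest CPM of the 4 libraries for 53 of 77 members. Without it the median fold change of the members was 0.0121, with 42 members positive, and without PP HET 2 it was 0.18. KO libraries also held less RNA of epithelial markers, of which 14 of 17 tested were called lower (sums 321 and 192 CPM in HET, 77.5 and 65.7 in KO), and of B cell markers (1004 and 1243 CPM in HET, 591 and 865 in KO). The part of these cells in the values of ribosomal protein genes was not tested.

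After induced loss of JunB in CD25- PP Tregs more members had a lower than a higher mean, and none was called. The share of reads was 0.385% and 0.416% in iHET and 0.379% and 0.363% in iKO libraries, a log2 ratio of -0.109. Of 76 members tested, 0 were called, where 0% of all 17079 genes were, and DESeq2 and the exact test called 0 members as well. Rps28 (higher) was the only member at an unadjusted p under 0.05, against 3.62% of all genes. Fold changes were positive for 26 and negative for 50 members with a median of -0.06, beside -0.00227 over all genes. The iKO libraries were both higher for 10 members (16.0% of all genes) and both lower for 19 (16.2% of all genes).

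Members of CD25- PP Tregs with the lowest p-values moved either way. Rps28, a short protein of the small subunit, was at 2.372 and 1.937 CPM in iHET and 4.378 and 3.606 CPM in iKO (0.87 ± 0.349, adjusted p = 0.999). This was the largest fold change of a member here and came from 56 to 144 counts per library. Rps13 (0.45) and Rps7 (0.44) were also higher, while Rps15a, with 22.42 and 25.25 CPM in iHET and 20.04 and 16.39 CPM in iKO, was lower (-0.39, adjusted p = 0.999), as was Rpl39 (-0.36). Rps25, which is needed for internal initiation by some viral and cellular messages, had 4.194 and 6.227 CPM in iHET and 4.074 and 3.242 CPM in iKO and the lowest fold change, -0.51 ± 0.337. The abundant Rpl4 had 515.2 and 573 CPM in iHET and 511.1 and 468.9 CPM in iKO (-0.16 ± 0.131), the other direction from PP Tregs of the Foxp3YFPcre mice. Epithelial marker sums were 745 and 371 CPM in iHET and 259 and 276 CPM in iKO, and their part in these values was not tested.

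In colonic Tregs, nearly all ribosomal protein genes had a higher mean after induced loss of JunB, and none passed the test. The share of reads was 0.238%, 0.330% and 0.474% in iHET and 0.458%, 0.412% and 0.494% in iKO libraries, or 0.348% ± 0.119 and 0.455% ± 0.0408 (SD, n = 3), a log2 ratio of 0.386. The iHET libraries spread more widely than the iKO libraries, and the groups overlap. The labels name no cage, and mice with the same number were taken as cage mates. Within each such pair the iKO library was above the iHET library, with 0.458% against 0.238%, 0.412% against 0.330% and 0.494% against 0.474%. Of 77 members tested with the mouse number as a term for cage, 0 were called. Of all 16313 genes 1 was called, Junb itself, or 0.00613%. The likelihood ratio test of edgeR and DESeq2 called 0 members too. An unadjusted p under 0.05 was reached by 3 members (Rps18, Rps21 and Rps19, all higher), against 3.87% of all genes, and by 14 in DESeq2. Yet 73 of 77 fold changes were positive, with a median of 0.38 beside 0.00479 over all genes. Without overlap between the groups were 6 members higher in iKO (3.81% of all genes) and 1 lower (4.49% of all genes). By pairs of the same number, 25 of the 77 members were higher in the iKO mouse of every pair (12.9% of all genes) and 1 was lower (14.4% of all genes).

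Rps18, a protein of the small subunit head, had 39.33, 54.28 and 90.17 CPM in colonic iHET and 86.43, 80.85 and 98.5 CPM in iKO libraries (0.61 ± 0.203, adjusted p = 0.947). The iHET libraries differed among themselves by more than their mean differed from that of iKO. The same held for Rps19, the gene mutated most often in Diamond-Blackfan anaemia, with 31.3, 48.46 and 72.13 CPM in iHET and 71.46, 67.79 and 80.03 CPM in iKO (0.60 ± 0.213), and for Rps21 (0.68 ± 0.239). Rps18 and Rps19 were each higher in the iKO mouse of every pair with the same number. Rps24 was among the members without overlap, with 18.33, 27.63 and 32.11 CPM in iHET and 32.43, 34.54 and 35.62 CPM in iKO (0.43 ± 0.177, adjusted p = 0.947). Rpl36a was the member lower without overlap, with 1.101, 1.139 and 1.082 CPM in iHET and 0.8437, 0.8247 and 0.8253 CPM in iKO (-0.40 ± 0.428). Its 6 libraries held 25 to 38 counts, and its 95% interval ran from -1.48 to 0.67.

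The difference in colonic Tregs was smaller when a mouse numbered 1 was left out. Colonic iHET 1 held the lowest CPM of the 10 libraries of the inducible line for 52 of 78 members, and of the 6 colonic libraries for 61. The median member lay 0.60 below its mean over the 10 libraries on the log2 scale in iHET 1, 0.07 below in iHET 2 and 0.31 above in iHET 3. In colonic iKO libraries it lay 0.25, 0.16 and 0.34 above, and in the 4 CD25- PP libraries 0.06 to 0.11 below. Without colonic iHET 1 the median fold change of the members between iKO and iHET was 0.136, with 57 of 76 positive. It was 0.137 without iKO 1, the mouse with the same number, and 0.406 to 0.533 without each other library. With the mouse number as a term, a mouse left without its pair adds nothing to the genotype difference. These medians therefore leave out a pair and cannot single out iHET 1. Among members with at least 100 counts in 1 of the colonic iHET libraries, the highest iHET value was the largest multiple of the lowest for Rps27l (11.76 to 41.04 CPM), Rpl39 (7.247 to 23.19 CPM), Rps21 (7.744 to 23.85 CPM) and Rplp1 (40.5 to 124.4 CPM).

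Other short genes deviated with the members in these libraries. Among protein-coding genes that are no members, the 311 genes with under 1000 exon bases had a median deviation of -0.41 in colonic iHET 1, 0.31 in iHET 3 and 0.26 in iKO 3, and the 8044 genes with 4000 exon bases or more had 0.07, -0.09 and -0.03. Colonic iHET 1 was the lowest library and iHET 3 and iKO 3 were the highest, both for the members and for the short genes. In iKO 1 and iKO 2 the members lay 0.25 and 0.16 above their mean and short genes 0.06 and 0.05. Nuclear-encoded respiratory chain subunits were also lowest in colonic iHET 1, where they summed to 4826 CPM against 5910 to 7681 CPM in the other colonic libraries, and mitochondrial ribosomal proteins summed to 1434 against 1637 to 2137 CPM. The part of transcript length or RNA quality in the difference was not tested. Epithelial markers summed to 858, 1373 and 437 CPM in colonic iHET and 414, 1254 and 3669 CPM in iKO libraries. B cell markers summed to 415.4, 324.1 and 995.3 CPM in iHET and 511.1, 441.3 and 510.3 CPM in iKO libraries, and the 2 libraries with the lowest sums, iHET 1 and iHET 2, were also those with the lowest share of ribosomal protein reads. Reads on mitochondrially encoded genes made up 0.338%, 0.513% and 0.687% of iHET and 0.630%, 0.572% and 0.785% of iKO libraries, which put the 6 libraries in the same order as the share of ribosomal protein reads. The 7 mitochondrially encoded protein genes tested were all positive, with a median of 0.391 and 0 called. Cycling genes summed to 1175, 1060 and 2317 CPM in iHET and 1499, 1197 and 1287 CPM in iKO libraries. Resting T cell genes summed to 4480, 4211 and 2592 CPM in iHET and 4845, 4531 and 4022 CPM in iKO libraries. Myeloid markers summed to 248.7, 180.4 and 469.6 CPM in iHET and 334.2, 261.6 and 228.6 CPM in iKO libraries. The part of other cells, cell state, mitochondrial RNA or RNA composition in the values of ribosomal protein genes was not tested.

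**Figure D3:**
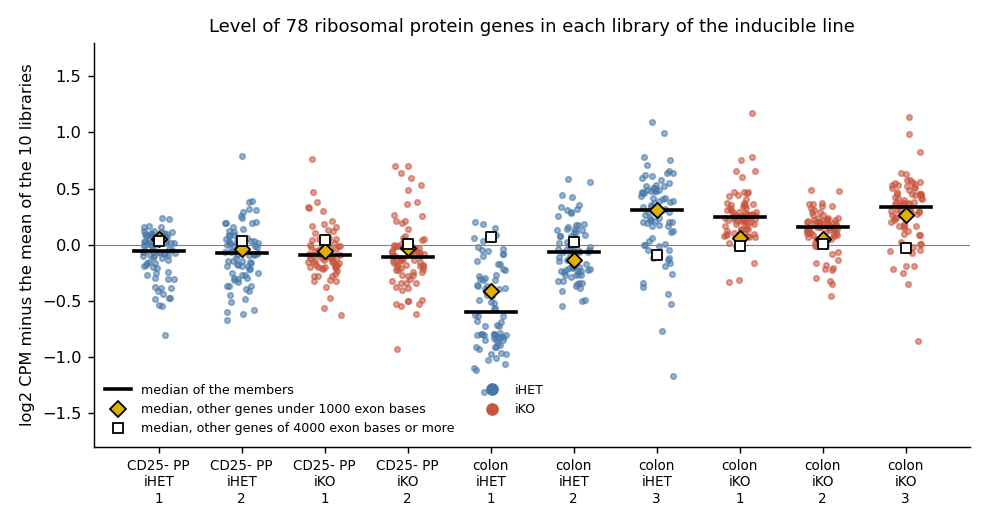
Level of 78 ribosomal protein genes in each library of the inducible line, as log2 CPM minus the mean of the gene over the 10 libraries. Points are genes, lines the medians of the members, diamonds and squares the medians of other protein-coding genes with under 1000 and with 4000 or more exon bases. The median of colonic iHET 1 lies at -0.60, the lowest of all libraries, and short other genes lie at -0.41 there.

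Colonic and CD25- PP Tregs of the inducible line were next compared within each genotype, in 1 fit of the 10 libraries. The organ and the CD25- gate cannot be told apart in this comparison. It uses the libraries of the comparisons above a second time, so its values are no independent evidence for them. In iHET mice, 0 of 78 members were called, where 6.45% of all 18626 genes were, and DESeq2 called 0 members. Rpl3 alone had an unadjusted p under 0.05 (22.3% of all genes did). The colonic libraries were all higher than the CD25- PP libraries for 8 members (18.8% of all genes) and all lower for 3 (19.9% of all genes). The median fold change was -0.04, beside -0.00859 over all genes, and it was 0.185 without colonic iHET 1 and -0.268 without colonic iHET 3. Hence the direction in iHET mice depended on which colonic library was kept.

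In iKO mice, the colonic libraries stood above the CD25- PP libraries for most members. All 3 colonic libraries were above both CD25- PP libraries for 53 of 78 members, where this held for 23.0% of all genes, and below for 3 members (21.0% of all genes). Fold changes were positive for 68 members with a median of 0.35, beside 0.014 over all genes, and the median was 0.332 for the large and 0.38 for the small subunit. Leaving out each library in turn kept the median between 0.311 and 0.396. Past the FDR of 0.05 was 1 member, Rpl3, where 4.07% of all genes were called. At an unadjusted p under 0.05 stood 7 members higher and 1 lower, against 20.9% of all genes. The members thus lay above the share of all genes for order without overlap and below it for calls. Genes of other cells and states also differed between these iKO groups. Of 28 cycling genes, 27 were positive, with sums of 1197 to 1499 CPM in colonic and 1048 and 1053 CPM in CD25- PP Tregs. Myeloid markers were positive for 11 of 12, with 2 called higher and sums of 228.6 to 334.2 against 145.3 and 166.6 CPM. Epithelial markers were positive for 16 of 20, with 1 called higher and 2 lower and sums of 414.4 to 3669 against 259 and 276.4 CPM, while CD8 T and NK cell markers were negative for 6 of 6, with 2 called lower. In iHET mice, cycling genes were also positive for 27 of 28, with 2 called higher, and myeloid markers for 11 of 12, with 5 called higher. Epithelial markers were positive there for 11 of 20, with 1 called higher and 3 lower, and CD8 T and NK cell markers were negative for 6 of 6. The median of the members in iHET mice was -0.04. The part of these other genes in the values of ribosomal protein genes was not tested in either genotype.

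Rpl3, a protein of the large subunit near the peptidyl transferase centre, was the only member called by edgeR's quasi-likelihood test in any comparison, and DESeq2 called Rpl3 and Rpl30 in the same comparison. It was at 96.86, 82.14 and 89.71 CPM in colonic and 60.62 and 54.28 CPM in CD25- PP Tregs of iKO mice (log2 fold change 0.64, standard error 0.145, 95% interval 0.32 to 0.96, edgeR adjusted p = 0.0444). All colonic libraries lay above both CD25- PP libraries, and the same order was seen in iHET mice, with 62.49, 76.28 and 81.19 CPM against 54.32 and 60.37 CPM (0.35, adjusted p = 0.191). The call was close to the threshold. The adjusted p was between 0.0925 and 0.289 when any 1 iKO library was left out, 0.0728 without TMM factors, 0.0933 with the mouse number as a replicate block and 0.00235 in DESeq2. Most coding stretches of Rpl3 are shared with copies, and the 2 pseudogenes named after it held 3060, 2766 and 3292 counts in colonic and 2611 and 1920 counts in CD25- PP Tregs of iKO mice, about as many as the 3100, 2490, 2826, 1994 and 1490 counts of Rpl3. With these reads added to it, the log2 fold change was 0.50 and the adjusted p was 0.124.

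Other members higher in colonic iKO Tregs did not pass the quasi-likelihood test in the fit of all 10 libraries. Rpl30, which DESeq2 and the fit of only the iKO libraries called, had 28.68, 31.9 and 35.68 CPM in the colon and 17.79 and 19.78 CPM in CD25- PP Tregs (0.77 ± 0.243, adjusted p = 0.112), and Rpl27 had 10.94, 10.42 and 14.16 CPM against 8.543 and 5.901 CPM (0.71 ± 0.242, adjusted p = 0.135). Rpl10a, reported in other systems to be present on only some ribosomes, had 41.21, 33.25 and 31.33 CPM against 25.84 and 18.43 CPM (0.67 ± 0.268, adjusted p = 0.197). Groups did not overlap for these 3 genes. Rps3, most of whose coding stretches are its own, had 506.3, 498.6 and 604.1 CPM against 405.4 and 418.9 CPM (0.38 ± 0.282, adjusted p = 0.485), and Rplp0 had 312, 307 and 359.8 CPM against 237 and 213.1 CPM (0.54 ± 0.232, adjusted p = 0.23). The members below in all colonic libraries included Rpl36a (-0.77 ± 0.437) and Rpl5, which with Rpl11 and 5S rRNA inhibits Mdm2 and stabilises p53, with 5.437, 5.014 and 4.444 CPM against 5.685 and 7.395 CPM (-0.39 ± 0.376, adjusted p = 0.588). Its partner Rpl11 had a fold change of the other sign (0.48 ± 0.265). Own coding stretches made up 0% for Rpl5 and for Rpl11, and 1047 of the 3920 exon bases of Rpl5 also belong to other genes.

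**Figure D4:**
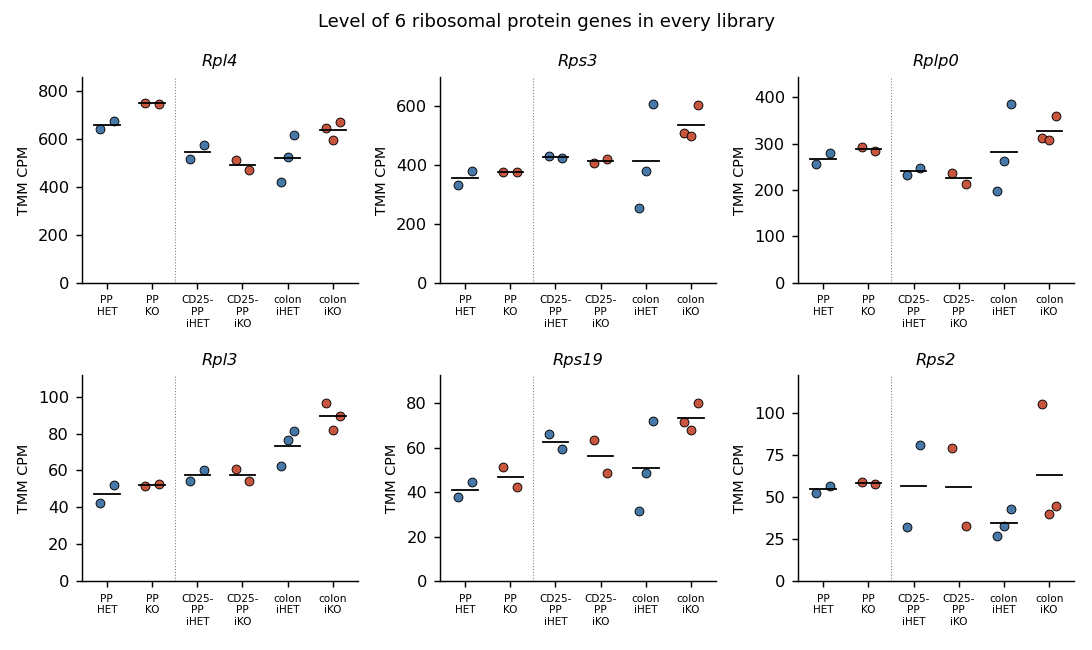
TMM CPM of 6 ribosomal protein genes in every library, each panel with its own axis from 0. Points are libraries, lines group means, blue HET and iHET, red KO and iKO, and the dotted line separates the count tables. The iKO colonic libraries of Rpl3 (82.14 to 96.86 CPM) lie above all other libraries, and Rps2 falls into high and low libraries within groups.

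Whether loss of JunB acted differently in the 2 organs was tested as an interaction. Of 78 members, 0 were called in it (0% of all 18626 genes were), 0 had an unadjusted p under 0.05 (3.34% of all genes did), and DESeq2 called 0 members. The median difference between the organs was 0.34 with 63 of 78 positive, and without colonic iHET 1 it was 0.122. Rpl4 had the lowest p, with a difference of 0.45 ± 0.224 (adjusted p = 1), and Rps25 (0.80), Rps19 (0.69), Rpl31 (0.74) and Rps15 (0.59) followed. Median standard errors of a member rose from 0.166 in PP Tregs to 0.423 in the interaction, where a single gene was measured with the least precision.

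**Figure D5:**
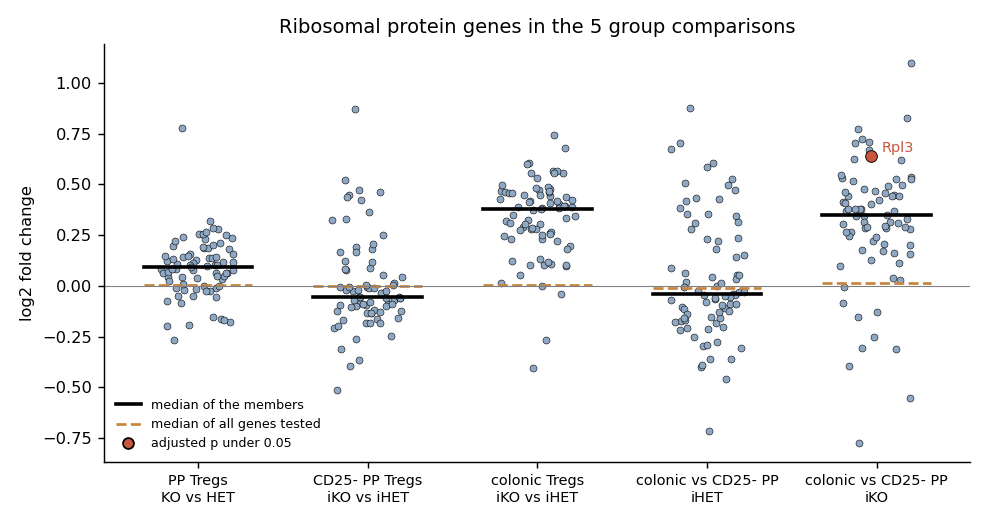
Fitted log2 fold changes of the ribosomal protein genes tested in each of 5 comparisons. Each point is 1 gene, black lines are medians of the members, dashed lines medians of all genes tested, and the red point is Rpl3, the member with an adjusted p under 0.05. The medians are 0.09, -0.06, 0.38, -0.04 and 0.35 from left to right.

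Members chosen for their known roles varied in the same narrow range. The stalk genes Rplp0, Rplp1 and Rplp2 had fold changes of 0.11, 0.10 and 0.25 in PP Tregs and of 0.26, 0.45 and 0.48 in colonic Tregs. For Rps3, which also has roles in DNA repair, the values were 0.08 and 0.46, for Rps14 0.08 and 0.45, and for Rpl41, the shortest ribosomal protein, 0.01 and 0.42. Others stayed nearer to 0, among them Rps6 (-0.00074 in PP and 0.01 in colonic Tregs), Rpl13a, the ribosomal part of the GAIT complex (-0.05 and 0.13), and Rpl11 (-0.16 and 0.10). None of these passed the test in either comparison. Own coding stretches made up 0% for Rps6 and Rpl11 and 2.5% for Rpl13a, against 91.9% for Rps3 and 48.3% for Rps14. They also made up 0% for Rpl41. The part of this in the differences between these genes was not tested. Rpl38, needed for translation of Hox messages, had 0.3552 to 2 CPM in the colonic libraries and a standard error of 0.607, and could not be resolved.

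Other parts of the translation machinery were described from lists of known genes. Of 6 elongation factors, 0 were called in any comparison, and their median fold changes were 0.185 in PP Tregs, with 6 of 6 positive and without overlap (21.8% of all genes were higher without overlap), -0.0774 in CD25- PP Tregs, with 0 of 6 positive, and 0.279 in colonic Tregs, with 5 of 6 positive. Eef2, which moves the ribosome along the message and is itself a TOP transcript, was at 1022 to 1062 CPM in colonic and 861.8 and 705.7 CPM in CD25- PP iKO Tregs (0.40, adjusted p = 0.0969). Ribosome biogenesis factors, 55 in all, had 0 called after loss of JunB in PP and colonic Tregs and medians of 0.0748 and 0.16, and in colonic Tregs 50 of 55 were positive. Between the organs 2 of the 55 were called higher in the colon in each genotype, below the share of all genes called (6.45% in iHET and 4.07% in iKO mice). They were Rrs1, an assembly factor for the 5S particle, with log2 fold changes of 0.77 in iHET and 0.84 in iKO mice, and Utp20 of the small subunit processome, with 0.80 and 0.57. Utp20 had 139.4, 177.3 and 167.3 CPM in colonic and 94.92 and 89.98 CPM in CD25- PP iHET Tregs.

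Initiation factors and regulators gave few calls. Of 32 initiation factors, Eif1 was called higher in colonic than in CD25- PP Tregs of iHET mice (0.70, adjusted p = 0.0352). Eif5a was called higher in the same comparison of iKO mice (0.73, adjusted p = 0.045). Of all genes, 6.45% were called between the organs in iHET and 4.07% in iKO mice. After loss of JunB, 0 initiation factors were called. Among 27 regulators of ribosomal protein synthesis tested, Max, the partner of Myc, was called lower in PP KO Tregs (-0.51, adjusted p = 0.0492), where 3.35% of all genes were called. Cdkn1a and Sesn2 were called higher in colonic than in CD25- PP Tregs of iHET mice. Myc itself was not called, with log2 fold changes of -0.11 in PP, -0.02 in CD25- PP and 0.02 in colonic Tregs. Of 31 other TOP transcripts, Vim was called higher in PP KO Tregs (0.50) and in colonic than in CD25- PP Tregs of both genotypes (2.45 in iHET and 2.35 in iKO). In iHET mice 2 of the 31 were called between the organs. Tpt1, Npm1 and Eef1a1 were called in no comparison, and the 78 mitochondrial ribosomal proteins, which form the ribosome of the mitochondrion, held 1 call in PP Tregs (Mrps6, lower, -0.52) and 0 in colonic Tregs, with 67 of 76 positive there and a median of 0.15.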

How the data were processed

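RNA-seq counts of 14 mouse Treg libraries were used. Before depositing them, the authors trimmed the reads with Trim Galore, aligned them to mm10 with STAR without multi-mapped reads and counted them per GENCODE gene with featureCounts, whose default settings ignore strand. Libraries were made with the Clontech SMARTer v4 low-input kit. The paired-end reads of the inducible line were treated as single-end, and reads were 50 bases long. The deposited values are raw counts, and 0 further columns were left out. A further gate of the PP sort is not reported here. Gene symbols, exon lengths and positions came from GENCODE M21 (GRCm38) by gene ID, and start sites from RefSeq (GRCm38.p6).

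Analyses used R 4.3.3, edgeR 4.0.16 and DESeq2 1.42.0. Genes with at least 1 CPM in as many libraries as the smaller group (2, or 3 for colonic Tregs) were kept, normalized by TMM and tested with edgeR's quasi-likelihood test (prior count 1, Benjamini-Hochberg FDR 0.05 over all genes tested). The colonic comparison had the mouse number as a term for cage. The study fitted cage, with 1 iHET and 1 iKO mouse per cage, but the labels name no cage. That colonic mice with the same number shared a cage is an assumption. Organs were compared in 1 fit of the 10 libraries of the inducible line. CPM per gene are TMM-scaled and sums over lists are not. Members with the 5 lowest p-values per comparison, paralogs, the 3 highest and lowest per length and genes of known roles were named. Members, lists and named genes were chosen with earlier results of these data known, so no p-value was computed over the list. Libraries of a group came from separate mice, and p-values measure the spread between them. Floors and counts cover counting error only, since reads carry no molecular identifiers. Tests were checked on simulated data. Alternatives were other normalizations, filters, tools, pseudogene reads added to their parent gene, replicate blocks and leaving out each library.

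Deviations of mice with the same number correlated by 0.0982 in PP and 0.101 in CD25- PP Tregs, and the numbers were not taken as pairs there. In colonic Tregs they correlated by 0.0622, 0.293 and -0.0885, which gives no firmer ground for pairs. The mouse number was kept as a term there only because the study fitted cage. The paper reports that colonic samples of co-housed mice clustered together, and these correlations do not show that mice with the same number were cage mates. Results for a few genes are not reported here.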

Additional observations from a re-analysis of the deposited data

Results flagged for a closer look

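Between the 2 PP comparisons the groups lay apart in opposite directions for some members. The share of reads on ribosomal protein genes was above HET in both PP KO libraries (log2 ratio 0.0973) and below iHET in both CD25- PP iKO libraries (-0.109). Of the members named, the same held for Rpl4 (0.187 in PP and -0.158 in CD25- PP Tregs), Rps4x (0.268 and -0.313) and Rps15 (0.202 and -0.264). Among the 75 members tested in both, 7 (9.33%) were higher in all KO and lower in all iKO libraries and 0 the reverse, against 3% and 3.9% of the 11999 genes tested in both. The difference was not tested, since the comparisons come from separately sequenced lines, gates and ages, which cannot be told apart.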

How the results depend on the processing

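Of 95 alternative counts of called members, 83 stayed within 1.5 times the count reported. That count was 0 in every comparison but 1, so most of these were 0 again. Of 59 medians 50 moved by less than the spread between libraries, as did all 34 log2 ratios of the share of reads. This spread was taken over the libraries compared, outlying ones included, so a median could change in size or sign within it. In colonic against CD25- PP iKO Tregs, where 1 member was called, 0 were called with library size alone, with pseudogene reads added or with a replicate block, 2 (Rpl3 and Rpl30) by DESeq2, 4 (Rpl3, Rpl30 and Rplp0 among them) with only the iKO libraries in the fit, 6 (Rpl3, Rpl10a, Rpl30, Rplp0 and Rps14 among them) without a filter on low counts, and 0 to 0 when each library was left out. In iHET mice 1 member (Rps2) was called without a filter in place of 0. The causes were not tested. The replicate block changed no other count of members, while all genes called went from 409 to 1015 in PP Tregs, from 1201 to 900 between organs in iHET and from 758 to 430 in iKO mice, where same-numbered mice correlated by 0.13 and -0.0335 and by 0.0831 and -0.0562. The median of PP Tregs was 0.0121 to 0.18 and that of CD25- PP Tregs -0.081 to -0.0554 when each library was left out. The latter was also -0.0734 with upper quartile, -0.0798 with library size alone, -0.0447 without a filter and -0.0599 with pseudogene reads added. Library size alone gave a median of 0.262 between organs in iKO mice. Over all genes, DESeq2 called 696 in PP, 35 in CD25- PP and 50 in colonic Tregs, against 409, 0 and 1 in the main test. The kinds of test that the study used, rerun here, called 689, 43 and 25. The counts that the paper itself reports are higher in each of these comparisons. For the 29 members without a coding stretch of their own, coding reads can have matched a copy as well, whatever the size of the library. The part of this in their counts was not tested.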

Other observations

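Rps2, which was chosen after its values were seen, fell into high and low libraries within groups of the inducible line. It was at 105.4 CPM in colonic iKO 1, 80.75 CPM in CD25- PP iHET 2 and 79.35 CPM in CD25- PP iKO 1, and at 26.93 to 44.66 CPM in the other 7 libraries, with no library between. In the Foxp3YFPcre table it was at 52.75 to 58.78 CPM. The high libraries belonged to both genotypes, both organs and both mouse numbers 1 and 2. The 11 pseudogenes named after Rps2 held 56 to 147 counts in a library, against 758 to 3374 counts of Rps2, and the neighbouring genes Tbl3 and Ndufb10 did not follow it, with ranges of 44 to 71 and 25.5 to 55.2 CPM. What separates the libraries was not tested.

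The count tables differed for single members. For the 74 members with at least 100 counts in some library, mean CPM in the inducible line was 1.3 times that in the Foxp3YFPcre table in the median, but 0.0484 times for Rpl35 (0.5632 against 11.63 CPM) and 0.244 times for Rps10, and 3.67 times for Rps12 and 3.5 times for Rps26. Of the 1241 exon bases of Rpl35, 821 also belong to another gene. Pseudogenes named after members held 0.596 to 0.637 counts per 100 member counts in the Foxp3YFPcre table and 9.17 to 10.4 in the inducible line. The gene version differed between the tables for 10 members, Rps10 among them (15 and 16), and whether both tables were counted with the same annotation is not known. Table, line, sequencer, annotation and gate cannot be told apart, and these ratios have no test.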
